A study of Mus musculus with 2 samples.

Results

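Interferon regulatory factors (IRFs) are transcription factors that bind DNA at repeats of GAAA through a conserved N-terminal domain. The genes described here were chosen by symbol and are Irf1, Irf2, Irf3, Irf4, Irf5, Irf7, Irf8 and Irf9, 8 of the 24081 genes counted. All 8 passed the expression floor, a mean of at least 20 reads over both libraries, which 10899 genes passed in all.

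The RNA came from Treg cells (regulatory CD4+ T cells, which express Foxp3 and hold immune responses in check) of 5-week-old C57BL/6 mice, sorted for CD4 and YFP out of spleen and lymph nodes. The KO library came from Foxp3cre/wt mice with both alleles of the targeted gene floxed, a gene of the SUMO conjugation pathway. The WT library came from Foxp3cre/wt mice with 1 floxed and 1 wild-type allele of it, so its cells also expressed Cre and carried a floxed allele. The Foxp3 locus drives Cre and YFP and lies on the X chromosome, so in Foxp3cre/wt mice Treg cells without Cre remain in the animal, and the sort on YFP leaves them out. Each library pooled cells of 5 to 10 mice and each group had 1 library, so the spread between mice is unknown and no p-value is given. Intervals are exact 95% intervals for counting error only. The KO library held 23789264 reads in genes and the WT library 11662867. Both samples carry a wild-type entry in the genotype field of their labels, so the directions rest on the titles KO and WT. The 10 T cell and Treg markers found had reads in both libraries and summed to 7164 CPM (reads scaled to the size of the library) in KO and 5780 CPM in WT. They did not all go one way: Foxp3 had 1320 CPM in KO and 713 in WT, whereas Cd3g had 366 in KO and 527 in WT, Ikzf2 203 in KO and 322 in WT, and Ctla4 88.8 in KO and 143 in WT.

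IRF proteins split by role. IRF1 and IRF2 bind the same elements, IRF1 mostly as an activator and IRF2 mostly as a repressor. IRF3, IRF5 and IRF7 are activated by phosphorylation downstream of nucleic acid sensors and Toll-like receptors, and IRF9 is a subunit of ISGF3, the complex that switches on genes after type I interferon. IRF4 and IRF8 bind with partners such as BATF, JUN and PU.1; IRF4 is induced by the T cell receptor and is needed for the effector differentiation of Treg cells, while IRF8 is best known in B cells, dendritic cells and macrophages. SUMO has been found attached to several IRF proteins, a change of the protein that read counts do not measure.

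The genes lie apart in the genome (mm10, which is GRCm38). Irf1 is at chr11:53770014-53778374, Irf2 at chr8:46739732-46847458, Irf3 at chr7:44997648-45002848 and Irf4 at chr13:30749226-30766976. Irf5 is at chr6:29526625-29541871, Irf7 at chr7:141262706-141266481 on the minus strand, Irf8 at chr8:120736358-120756694 and Irf9 at chr14:55603571-55610030. The strand setting of the counting is not known here, so reads from overlapping genes are less certain. Exons of Irf5 overlap those of Tnpo3 on the opposite strand over 251 bases (9.48% of its exon length), those of Irf1 overlap Gm17334 on the opposite strand over 100 bases, and those of Irf9 overlap Rnf31 on the same strand over 123 bases.

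The promoters are shown for the members whose windows hold letters of an interferon-responsive element. All 8 genes matched the RefSeq promoter table (GRCm38.p6), with 11 windows from 250 bases before to 50 bases after a start. Both strands were searched for 6 motifs. The GAS motif TTCNNNGAA, an element of the response to interferon-gamma, was found in windows of 3 genes, Irf1, Irf2 and Irf8, and in 8.3% of all 32851 windows. The ISRE core GAAANNGAAA, bound by IRFs and ISGF3, was found in Irf2 alone (3.44% of all windows), where it overlaps a match to the ETS-IRF composite GGAANNGAAA (2.72%). The shorter core AANNGAAA, which lies within the longer ones, was also found in Irf2 alone (23.9%). No member window held GGGANTTTCC (a kappaB motif, 0.411% of all windows) or TGANTCA (AP-1, 7.81%). The stretches below are on the plus strand, 5′ to 3′, at chr11:53769884-53769963 for Irf1, chr8:46739495-46739574 for Irf2 and chr8:120736158-120736237 for Irf8. Capitals mark the GAS matches and, in Irf2, first the overlapping ETS-IRF and ISRE matches. The Irf2 stretch runs into an exon of the noncoding gene Gm16675 on the opposite strand.
Irf1: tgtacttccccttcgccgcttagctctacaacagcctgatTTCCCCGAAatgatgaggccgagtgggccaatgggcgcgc
Irf2: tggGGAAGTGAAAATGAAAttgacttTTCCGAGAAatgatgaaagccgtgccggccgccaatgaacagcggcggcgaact
Irf8: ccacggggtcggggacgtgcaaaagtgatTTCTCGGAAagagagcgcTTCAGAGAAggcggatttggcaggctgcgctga
The 3 genes with a GAS match did not share a ratio of KO over WT: the log2 ratios given below were 0.05 for Irf1, 0.45 for Irf2 and -0.12 for Irf8.

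None of the 8 IRF genes differed by 1.5-fold or more between the libraries, and they lay on both sides of 0 on the log2 scale. Irf4 and Irf5 were lower in the KO library by 1.44-fold and 1.46-fold, Irf7 and Irf2 were higher by 1.38-fold and 1.36-fold, and Irf3 was higher by 1.21-fold. Irf1, Irf8 and Irf9 lay within 1.09-fold. Over the expressed genes, 7.43% reached 1.5-fold higher in KO and 5.51% reached 1.5-fold lower, and 1.59% and 2.08% reached 2-fold, so a count of 0 among 8 is near this background. Counting intervals lay wholly above a ratio of 1 for 3 of the 8 genes and wholly below it for 2, against 29.1% and 25.6% of expressed genes. The median log2 ratio of the 8 genes was 0.06, against 0.01 over all expressed genes, whose quartiles were -0.20 and 0.25.

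**Figure D1:**
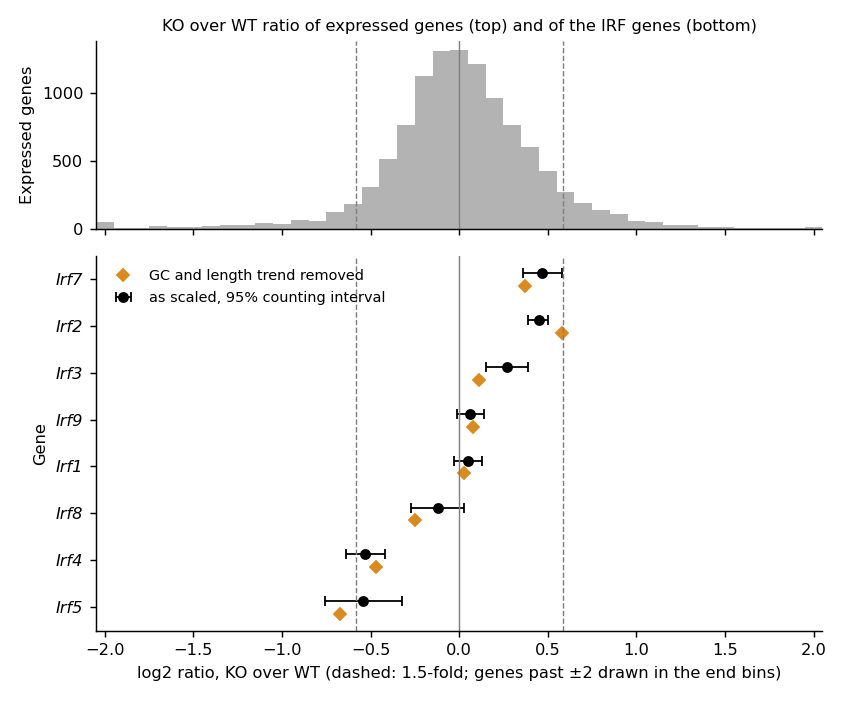
Top: number of expressed genes by log2 ratio of KO over WT, in bins of 0.1. Bottom: the 8 IRF genes on the same axis, as black circles with their 95% counting interval and as orange diamonds after removal of the GC and length trend. All 8 circles lie between the dashed lines at 1.5-fold, and of the diamonds only that of Irf5 lies outside them, at -0.67.

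As levels per kilobase of exon, which let genes be compared, the order was the same in both libraries. Irf2 led with 149.9 CPM per kilobase in KO and 110.1 in WT, above 96.9% of expressed genes in KO and 95.8% in WT. Irf9 followed with 65.1 in KO and 62.3 in WT, and Irf1 with 52.7 in KO and 51.0 in WT. Irf7 and Irf3 came next, with Irf7 at 44.3 in KO and 32.0 in WT and Irf3 at 37.2 in KO and 30.9 in WT. In WT the intervals of these neighbours overlapped (30.0 to 34.2 for Irf7, 28.8 to 33.1 for Irf3), and in KO they did not. Irf4 had 14.2 in KO and 20.5 in WT, and Irf8 had 12.9 in KO and 14.0 in WT. Irf4 thus stood clear of Irf8 in WT, while in KO their intervals overlapped slightly (13.5 to 14.9 for Irf4, 12.1 to 13.7 for Irf8). Per kilobase, Irf4 to Irf8 stood at 1.1 in KO and 1.46 in WT. Overlap of intervals does not show that levels are equal. Irf5 was the lowest, at 6.49 in KO and 9.46 in WT. The exon lengths come from GENCODE M21 and not from the authors' annotation, so the levels between genes are approximate, whereas the ratios between libraries do not use them.

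**Figure D2:**
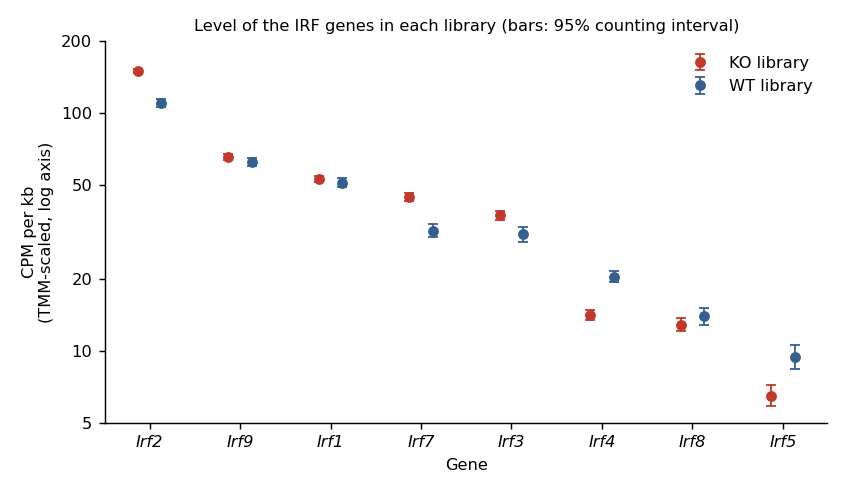
Level of each IRF gene in CPM per kilobase of exon (log axis), KO in red to the left of WT in blue, with 95% counting intervals. The genes are ordered by their WT level, from Irf2 (149.9 in KO, 110.1 in WT) to Irf5 (6.49 in KO, 9.46 in WT).

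Irf4, the IRF tied to effector Treg cells, had 1568 reads in the KO library and 1171 in the WT library, that is 67.7 CPM in KO and 97.8 CPM in WT. The KO library is the deeper one, so its larger read count is a lower level. The log2 ratio was -0.53 (interval -0.64 to -0.42), and 6.52% of expressed genes had a lower one. Irf8, its closest relative, had 1027 reads in KO and 578 in WT (44.3 CPM in KO, 48.3 CPM in WT), a ratio of 0.919 (0.829 to 1.02) that was not distinguishable from 1 at this depth. Within each library, which needs no scaling between them, Irf4 had 1.53 reads per Irf8 read in KO and 2.03 in WT, and the ratio of these, 0.754, had an interval of 0.662 to 0.857. On the log2 scale it was -0.41, and -0.22 with the trend with GC content and transcript length, described below, removed.

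Irf2 had 8669 reads in KO and 3293 in WT (374 CPM in KO, 275 CPM in WT), with a log2 ratio of 0.45 (0.39 to 0.50). Irf1, its counterpart at the same elements, had 4071 reads in KO and 2037 in WT (176 CPM in KO, 170.1 CPM in WT), with a ratio of 1.03 (0.980 to 1.09). There were 0.470 Irf1 reads per Irf2 read in KO and 0.619 in WT, a ratio of 0.759 (0.710 to 0.812), or -0.40 on the log2 scale and -0.56 with that trend removed. The widest of the 4 pairs compared was Irf4 with Irf2. There were 0.181 Irf4 reads per Irf2 read in KO and 0.356 in WT, a ratio of 0.509 (0.466 to 0.555), or -0.98 on the log2 scale and -1.05 with the trend removed.

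Among the IRFs activated by sensors, Irf7 had 2454 reads in KO and 918 in WT (106 CPM in KO, 76.6 CPM in WT). Its log2 ratio of 0.47 (0.36 to 0.58) was the highest of the 8, and 11.7% of expressed genes had a higher one. Irf3 had 1886 reads in KO and 809 in WT (81.4 CPM in KO, 67.5 CPM in WT), a ratio of 1.21 (1.11 to 1.31). Irf7 to Irf3 stood at 1.30 reads in KO and 1.13 in WT, a ratio of 1.15 (1.02 to 1.28), or 0.20 on the log2 scale and 0.26 with the trend removed. Irf5, the least abundant, had 398 reads in KO and 300 in WT (17.2 CPM in KO, 25.0 CPM in WT). Its log2 ratio of -0.54 had the widest interval of the 8, -0.76 to -0.32.

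Irf9, the DNA-binding subunit of ISGF3, had 4680 reads in KO and 2315 in WT (202 CPM in KO, 193 CPM in WT). Its ratio of 1.05 (0.994 to 1.10) was not distinguishable from 1 at this depth. The sign of Irf1 and Irf9 turned with the scaling: by total gene counts in place of TMM their log2 ratios were -0.03 and -0.01. Total counts also took Irf4 and Irf5 past 1.5-fold lower, at -0.61 and -0.62. This scaling lowered the ratios of all genes by nearly the same amount. The median log2 ratio over expressed genes moved from 0.01 to -0.06.

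As shares of the summed reads of the 8 genes, which do not depend on the scaling between libraries, Irf2 took 35.0% in KO (34.4 to 35.6) and 28.8% in WT (28.0 to 29.7). Irf4 took 6.33% in KO (6.03 to 6.65) and 10.3% in WT (9.70 to 10.8). Irf7 took 9.91% in KO and 8.04% in WT, so that by raw reads Irf7 ranked above Irf4 in KO and below it in WT. Per kilobase of exon, as given above, Irf7 was above Irf4 in both. Irf5 took 1.61% in KO and 2.63% in WT, and the other 4 genes differed by under 1.4 percentage points. The 8 genes together summed to 1069 CPM in KO and 953 in WT; other IRF genes are not analysed here.

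**Figure D3:**
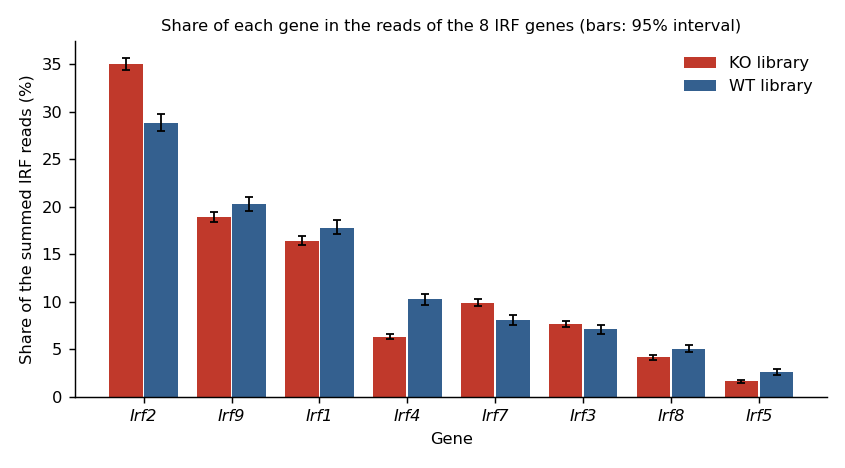
Share of each gene in the summed reads of the 8 IRF genes (percent), KO in red to the left of WT in blue, with exact 95% intervals. Irf2 held a larger share in KO (35.0% against 28.8% in WT) and Irf4 a smaller one (6.33% against 10.3% in WT).

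The ratio of expressed genes moved with the GC content of their transcripts. Across genes, which are not independent replicates, Spearman's rho was 0.43, and the median log2 ratio was -0.19 in the decile with the lowest GC content and 0.37 in the decile with the highest. Irf3, Irf5, Irf7 and Irf8 have GC-rich transcripts (55.1% to 56.7%, against a median of 50%), and Irf2 and Irf4 have GC-poor ones (46.8% and 47.6%). After a smooth fit on GC content and transcript length was subtracted, the log2 ratio of Irf2 was 0.58 and that of Irf7 0.37. Irf3 moved closer to 0, at 0.11, beside Irf9 at 0.08 and Irf1 at 0.03. On the lower side lay Irf8 at -0.25, Irf4 at -0.47 and Irf5 at -0.67. Irf5 was then past 1.5-fold lower, as were 5.23% of expressed genes, while 4.7% were past 1.5-fold higher and none of the 8 IRF genes was. Within its own decile by GC content, 3.54% of genes had a lower ratio than Irf5, 7.56% a lower one than Irf4 and 93.0% a lower one than Irf2. For Irf3 it was 55.3%, so its ratio of 1.21 lay near the middle of genes of like GC content.

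**Figure D4:**
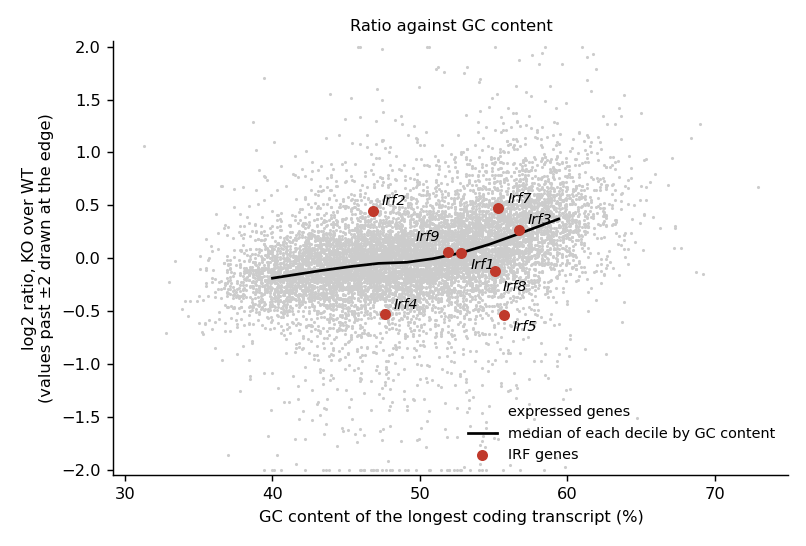
log2 ratio of KO over WT against GC content of the longest coding transcript, for the expressed genes with a GC value (96%) in grey and the 8 IRF genes in red. The black line joins the medians of deciles of genes by GC content, from -0.19 to 0.37; Irf3, Irf1 and Irf9 lie close to it, Irf2 and Irf7 above it, and Irf4, Irf5 and Irf8 below it.

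Irf5 and Irf8 are abundant in other cell types, so markers of these were summed. All 10 B cell markers had reads in both libraries and summed to 138 CPM in KO and 172 in WT, a ratio of 0.799. All 13 monocyte and macrophage markers found also had reads in both, summing to 743 in KO and 822 in WT (0.904), with Lyz2 at 126 in KO and 123 in WT and C1qb at 107 in KO and 99.3 in WT. The lower sum rests on Ctss, at 218 in KO and 296 in WT, without which the sums were 525 in KO and 526 in WT (1.00). The 13 dendritic cell markers summed to 192 in KO and 170.5 in WT (1.13). Without Ccr9 (54.6 in KO, 37.1 in WT) and Bst2 (45.2 in KO, 34.1 in WT), which is also in the list of interferon-stimulated genes, they summed to 92.4 in KO and 99.3 in WT (0.93). Both omissions were chosen after the values were seen. The 6 plasma cell markers summed to 5.91 in KO and 7.68 in WT, with Tnfrsf17 at 0 in both and Fkbp11 at 0 in WT. The 10 CD8 and NK cell markers summed to 63.4 in KO and 60.9 in WT, with Klra8 at 0 in both. Beside these sums stood a ratio of 0.919 for Irf8 and 0.686 for Irf5. What part other cells have in either was not tested. In bulk samples, fewer cells of a type and less RNA per cell cannot be told apart.

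The genes linked to IRF4 in effector Treg cells differed far more than Irf4 itself. In the KO library 15 of the 20 measured genes of this list were lower by 1.5-fold or more, 1 was higher and 4 lay between. That is 75% lower and 5% higher, against 5.51% and 7.43% of all expressed genes. The list was chosen with earlier results of these data known, so the contrast is descriptive and not independent of them. With the GC and length trend removed 13 were lower and 1 higher, against 5.23% and 4.7%. Before that removal the median log2 ratio was -1.31, against -0.53 for Irf4 and 0.01 for all expressed genes. Prdm1, which encodes Blimp-1, a repressor that acts with IRF4 in effector Treg cells, had 328 reads in KO and 259 in WT (1.53-fold lower, 1.29 to 1.80). With the GC and length trend removed its log2 ratio was -0.54, under 1.5-fold. The receptors Cxcr3, Ccr4, Tigit and Il1rl1 and the cytokine Il10 were the most different, from 7.93-fold to 16.5-fold lower. Il10 was 11.3-fold lower on few reads (7 in KO, 41 in WT), with an interval of 5.03 to 29.9. Il1rl1 had 40 reads in KO and 164 in WT (7.93-fold, 5.58 to 11.5). The higher gene was Gata3, a helper lineage factor also found in Treg cells of tissues, with 3193 reads in KO and 1040 in WT (1.59-fold, 1.48 to 1.70). It was picked out after its values were seen.

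Of the 24 measured partners and inducers of IRF4 and IRF8, 6 reached 1.5-fold higher in KO (25%, against 7.43% of expressed genes) and none lower (against 5.51%), with a median log2 ratio of 0.25. With the GC and length trend removed 1 of the 24 was higher (4.17%, against 4.7%), with a median of 0.15. The AP-1 genes Jund (15977 reads in KO, 4279 in WT), Jun (8711 in KO, 2601 in WT) and Junb (14456 in KO, 4618 in WT) were 1.93-fold, 1.73-fold and 1.62-fold higher. Batf, which pairs with JUN proteins beside IRF4, had 505 reads in KO and 249 in WT and a ratio of 1.05 (0.899 to 1.23). Spi1, which encodes PU.1, was 1.64-fold higher on few reads (272 in KO, 86 in WT), and the E protein gene Tcf3 1.60-fold higher. The list also held the genes of IRF2-binding proteins, described at the end, which are named for IRF2 and not for IRF4 or IRF8. Among them Irf2bp1, 1.52-fold higher, is the remaining gene of the 6. The 1 that stayed higher with the trend removed was Jun, at 0.65 on the log2 scale.

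Upstream of the IRFs, the interferon receptors, their kinases and STATs lay mostly within 1.5-fold. Of 15 genes 1 was higher (6.67%, against 7.43% of expressed genes) and none lower (against 5.51%), shares near the background, with a median log2 ratio of 0.08. Socs1, the inhibitor of JAK kinases, was 1.88-fold higher (1.60 to 2.22), with 680 reads in KO and 187 in WT. The interferon-gamma receptor chain Ifngr2 had a log2 ratio of 0.40 and Stat5a, which signals for IL-2, one of 0.35. Stat2, which joins IRF9 in ISGF3, had one of 0.03.

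The machinery that activates IRF3, IRF5 and IRF7 likewise showed a median near 0 (-0.01). Of 23 genes 1 was lower (4.35%, against 5.51% of expressed genes) and none higher (against 7.43%), again near the background. Tlr4, the receptor for bacterial lipopolysaccharide, had 79 reads in KO and 88 in WT (2.15-fold lower, 1.57 to 2.96). The kinases that phosphorylate IRF3 and IRF7 had log2 ratios of 0.45 for Ikbke and -0.16 for Tbk1. The adaptor Tirap was at -0.56 on few reads (60 in KO, 46 in WT).

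Genes switched on by the IRF9 complex did not share a direction. Among 37 interferon-stimulated genes with enough reads, 2 reached 1.5-fold higher (5.41%, against 7.43% of expressed genes), none lower (against 5.51%) and 35 lay between, with a median log2 ratio of -0.06; 17 lay above 0 and 20 below. With the GC and length trend removed 3 were higher (8.11%, against 4.7%) and none lower (against 5.23%), with a median of 0.02. Before that removal Xaf1, a pro-apoptotic protein, was 2.16-fold higher and Ifi44 1.73-fold higher. Oas2, a sensor of double-stranded RNA, had a log2 ratio of 0.57. The ubiquitin-like modifier Isg15 had one of 0.46, and of 0.22 with the trend removed. On the lower side Eif2ak2 was at -0.56 and Tor3a at -0.50, both picked out after their values were seen. Irf7, itself a gene that interferon induces, was at 0.47.

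Targets of IRF1 and interferon-gamma were mixed as well. Among the 34 measured, 2 were higher (5.88%, against 7.43% of expressed genes), 5 lower (14.7%, against 5.51%) and 27 between, and the median log2 ratio was -0.04. With the GC and length trend removed 1 was higher (2.94%, against 4.7% of expressed genes) and 4 lower (11.8%, against 5.23%). The chemokine Cxcl10 (28 reads in KO, 49 in WT) was 3.38-fold lower, the inflammatory caspase Casp1 (101 in KO, 135 in WT) 2.58-fold lower, and the guanylate-binding proteins Gbp3 (875 in KO, 1015 in WT) and Gbp10 (612 in KO, 507 in WT) 2.24-fold and 1.60-fold lower, against -0.17 on the log2 scale for Gbp2. With the GC and length trend removed Gbp10 was at -0.52 and H2-D1 at 0.51, both under 1.5-fold. The Gbp genes are near-identical in part, so their reads can be lost or split between copies. Besides Socs1, the higher gene was H2-D1 (log2 ratio 0.63), and the fifth lower gene was Il12rb1 (-0.60), both picked out after their values were seen.

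**Figure D5:**
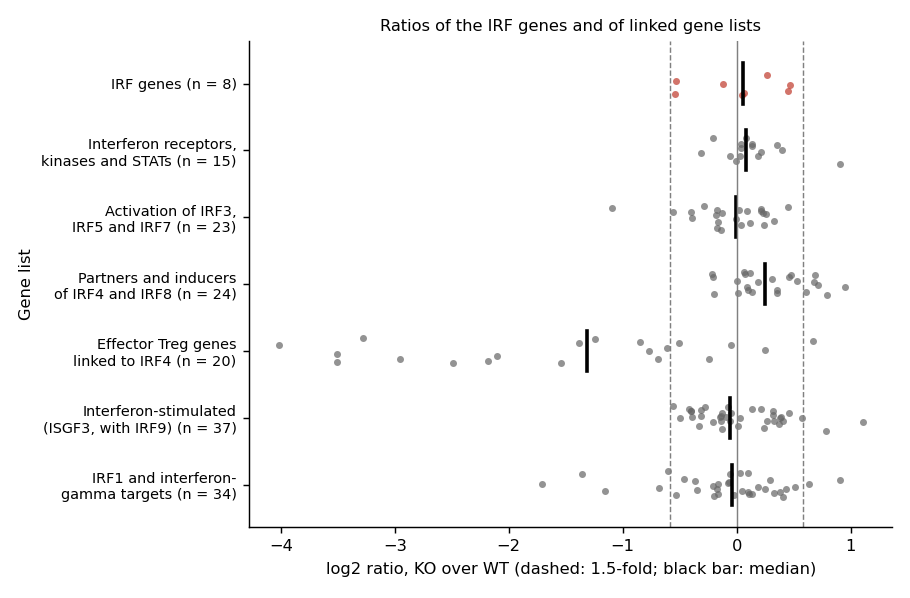
log2 ratio of KO over WT of the 8 IRF genes (red) and of the measured genes of 6 linked lists (grey), each dot a gene, with medians as black bars and dashed lines at 1.5-fold. The effector Treg list reaches down to -4.02 with a median of -1.31, while the IRF genes and the other lists centre between -0.06 and 0.25.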

How the data were processed

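The authors deposited 1 table of raw read counts per gene symbol for both libraries. The submitters' processing notes name mm10, TopHat2 2.0.3 and HTSeq; the annotation, strand setting and read length were not given in the sources used here. Per the labels' protocols, mRNA was captured on beads from Trizol-extracted RNA, and a transposase kit made the libraries. Of 24086 entries, 5 are the counter's categories for reads outside genes (23.4% of reads in each library) and were left out. Samples were grouped by title.

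Counts were scaled with TMM factors of edgeR 4.0.16 (0.974 for KO, 1.03 for WT) in R 4.3.3; CPM values (reads scaled to library size) are on this scale. KO over WT log2 ratios were taken at the mean effective library size with a pseudocount of 1, and genes were called at 1.5-fold. Folds and intervals of single genes use no pseudocount; intervals are exact Clopper-Pearson intervals, conditional on the summed reads. They treat reads as independent. No test was run, since each group has 1 library. The ratios and intervals were tested on simulated counts with counting (Poisson) noise only. The simulation held no GC trend and no spread between mice, so it checks the calculation alone. Exon lengths and GC content came from coding transcripts of the GENCODE M21 basic set (96.0% of expressed genes matched), and promoters from RefSeq. The GC and length trend was fitted with mgcv 1.9.3.

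The members, lists, pairs, thresholds and alternatives were chosen with earlier results of these data known. The text names every member, from each list up to 5 genes past 1.5-fold with the largest ratios (the 3 largest where fewer than 3 passed), and Prdm1, Batf, Stat2, Gbp2, Isg15, Tbk1 and Foxp3. The targeted gene and some others are not reported here. Python 3.11.15, pandas 2.3.3 and scipy 1.17.1 handled the tables.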

Additional observations from a re-analysis of the deposited data

How the results depend on the processing

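With DESeq2 size factors (DESeq2 1.42.0) or a pseudocount of 5 or 0.5, every IRF ratio stayed within its counting interval, and each count of IRF and list genes within 1.5 times its value as reported. A floor of a mean of 100 counts left the IRF counts as they were. Scaling by total gene counts gave 2 IRF genes at least 1.5-fold lower, and Irf2 and Irf9 at 0.37 and -0.01 on the log2 scale. It gave a median of 0.01 for the receptor, kinase and STAT list, 2 lower genes among the activators of IRF3, IRF5 and IRF7, 1 lower interferon-stimulated gene and 1 higher IRF1 target. With the GC and length trend removed, 1 IRF gene was lower, Irf2 and Irf3 were at 0.58 and 0.11, 1 partner or inducer was higher with a list median of 0.15, and 1 IRF1 target was higher. Without a floor, 1 interferon-stimulated gene was lower. At 2-fold, no gene was higher among receptors, kinases and STATs, partners and inducers, effector Treg genes or IRF1 targets (0 in each), 1 interferon-stimulated gene was higher, and 3 IRF1 targets were lower. Per kilobase, the shares of the summed IRF level were, in KO and in WT, 13.8% and 15.4% for Irf1, 39.2% and 33.3% for Irf2, 9.72% and 9.34% for Irf3, 3.71% and 6.21% for Irf4, 11.6% and 9.70% for Irf7, 3.37% and 4.25% for Irf8, and 17.0% and 18.9% for Irf9; these move because the genes differ in length. Scaling by total gene counts lowered the ratios of all genes by nearly the same amount (median over expressed genes 0.01 before, -0.06 after). The causes of the remaining changes were not tested. No paired analysis was possible because each group has 1 library, and for the same reason none could be left out. Depth limits the genes with few reads, Tirap and Il10 among them.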

Other observations

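Within the list of IRF1 and interferon-gamma targets, gene groups picked out after their values were seen lay on opposite sides of 0, and they are described here with no test. All 9 guanylate-binding protein genes measured (Gbp2 to Gbp10) had a log2 ratio of KO over WT below 0, with a median of -0.35. All 11 genes of class I antigen processing, namely the immunoproteasome and its activator, the peptide transporter with its partner tapasin, B2m, H2-K1 and H2-D1, had a ratio above 0, with a median of 0.29. Of all expressed genes, 51.4% had a ratio above 0. The groups also differed in GC content, with medians of 45.1% and 55.9%. With the GC and length trend removed 7 of the 9 lay below 0 and 7 of the 11 above it. The medians were then -0.21 and 0.17, against 0.02 over expressed genes. With scaling by total gene counts and the trend left in, all 9 lay below 0, and 10 of the 11 lay above it and 1 below.

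The 3 genes of IRF2-binding proteins, corepressors first found through IRF2, were also picked out after their values were seen. Their log2 ratios were 0.61 (Irf2bp1), 0.48 (Irf2bp2) and 0.35 (Irf2bpl), against 0.45 for Irf2. Their transcripts are GC-rich (median 60.0%), and with the trend removed 2 of the 3 lay above 0 and Irf2bpl at -0.02, with a median of 0.15, against 0.58 for Irf2.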
